A study of Homo sapiens with 21 samples.

Results

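The transcriptional effect of combined BRAF and MEK inhibition was examined in CRT34, a drug-tolerant derivative of the human melanoma cell line A375. The comparison set the 3 libraries of CRT34 cells with both inhibitors (Combo) against the 3 libraries of CRT34 cells with the solvent DMSO. The log2 changes rest on these 6 of the 21 libraries of the series, while the spread behind each p-value was estimated from all 21. The inhibitors of the Combo group were PLX4720, which targets BRAF, at 1 µM, and PD0325901, which targets MEK, at 35 nM. CRT34 and its companion line CRT35 arose as tumors in mice under combined BRAF and MEK inhibition, and the labels give both inhibitors as part of the medium in which the 2 lines were grown, so DMSO stands for cells of a drug-adapted line set on solvent. How long the cells were kept with or without the inhibitors is not given in the labels. The other libraries were CRT35 Combo, CRT35 DMSO, 2 A375 clones with a CRISPR/Cas9 knockout of SOX10 (gSOX10 #2 and gSOX10 #4) and parental A375, each with 3 libraries. CRT34 is 1 line from A375, so the comparison describes that line. Separate cultures are not stated in the labels for the libraries of a group, so a p-value here reflects only how libraries spread within the 7 groups, which may be technical.

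A375 carries a mutant BRAF kinase that keeps the kinases MEK and ERK active without a growth factor signal. Active ERK induces immediate early transcription factors and, as negative feedback, phosphatases of the DUSP family and the Sprouty and SPRED proteins, so the messages of these genes serve as a readout of ERK output. NF-kappaB is a separate transcription factor system that drives chemokines, cytokines and its own inhibitors after inflammatory signals, and melanoma cells of the undifferentiated, SOX10-deficient kind often express such genes strongly.

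Promoters of 3 genes on which the results turn are shown to give the reader the sequence next to the values: EGR1, an immediate early gene of ERK, and CXCL1 and CXCL8, chemokine genes of NF-kappaB. The sequences are from RefSeq (GRCh38.p14, plus strand, 250 bases before to 50 after the annotated start). Capitals mark matches to the CArG box, the binding sequence of serum response factor, in EGR1, to GGANNTTCC, an NF-kappaB-type motif, in CXCL1 and CXCL8, and to TGANTCA, an AP-1-type motif, in CXCL8. Both strands were searched, and no 2 matches shown overlap.
EGR1: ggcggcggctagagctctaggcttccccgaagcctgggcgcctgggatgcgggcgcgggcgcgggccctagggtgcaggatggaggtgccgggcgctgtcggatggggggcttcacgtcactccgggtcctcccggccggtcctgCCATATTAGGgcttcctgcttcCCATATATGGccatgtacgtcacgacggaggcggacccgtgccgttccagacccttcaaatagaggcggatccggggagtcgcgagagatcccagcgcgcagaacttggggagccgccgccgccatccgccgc
CXCL1: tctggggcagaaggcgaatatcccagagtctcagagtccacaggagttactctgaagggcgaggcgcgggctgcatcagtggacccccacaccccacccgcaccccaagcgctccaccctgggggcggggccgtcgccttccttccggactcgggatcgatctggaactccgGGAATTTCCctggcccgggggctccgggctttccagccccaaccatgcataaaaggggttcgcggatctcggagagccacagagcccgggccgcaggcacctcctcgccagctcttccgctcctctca
CXCL8: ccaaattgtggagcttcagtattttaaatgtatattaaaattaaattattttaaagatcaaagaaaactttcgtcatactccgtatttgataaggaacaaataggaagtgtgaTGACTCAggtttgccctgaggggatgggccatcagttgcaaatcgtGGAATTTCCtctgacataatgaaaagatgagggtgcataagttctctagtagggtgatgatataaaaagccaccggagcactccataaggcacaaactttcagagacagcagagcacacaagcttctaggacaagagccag
The EGR1 window lies at chr5:138465229-138465528, with CArG boxes that begin 105 and 83 bases before the start. The CXCL1 window lies at chr4:73869143-73869442 and has GGANNTTCC 78 bases before the start, and the CXCL8 window lies at chr4:73740319-73740618 with GGANNTTCC 91 and TGANTCA 137 bases before it. Of 35116 promoters of the same length, 4.56% held GGANNTTCC, 7.71% held TGANTCA and 1.29% held a CArG box. Among the promoters of the 4 gene lists examined first, GGANNTTCC stood in 16 of 36 promoters of NF-kappaB targets and inflammatory genes, 1 of 21 of ERK feedback inhibitors, 1 of 30 of ERK output transcription factors and 2 of 21 of other ERK output genes. In the same order of lists, TGANTCA stood in 4 of 36, 2 of 21, 1 of 30 and 5 of 21 promoters, and a CArG box in 2 of the 30 of ERK output transcription factors and 0 of the other lists. These are matches of letters, not measured binding.

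Levels are the deposited normalized values, gene counts scaled between libraries by size factors. A further factor for each gene may have been divided out, so levels, and sums over marker genes, are compared between libraries and not between genes. Where levels are described as low below, the listed values are meant, not the abundance of 1 gene against another. Differences are log2 changes of Combo less DMSO of log2(value + 1), a scale on which changes of low genes come out too small, with limma's standard error (SE) and a p adjusted over the 19290 genes tested. A call needed an adjusted p of at most 0.05 together with a difference of 2-fold or more. Depth, read from the smallest steps between values, was about 66.0 M to 67.8 M reads in the Combo libraries and 53.7 M to 67.8 M in the DMSO libraries, and 24370 to 24788 genes were above 0 in the Combo libraries, against 22140 to 23187 in the DMSO libraries. The number of genes detected therefore moved with the groups, and its part in the results was not tested. SOX10, the lineage factor missing from this line, was listed at 0 in all 3 Combo libraries, against 6.32, 0 and 0.974 in the DMSO libraries, and parental cells had 10348, 11877 and 12822.

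One of the 6 libraries, Combo replicate 3, correlated about as well with the other group as with its own. Across genes, which are not independent replicates, Combo replicates 1 and 2 correlated at r = 0.981 with each other, whereas Combo replicate 3 correlated at 0.959 and 0.969 with them and at 0.963 to 0.972 with the DMSO libraries. Combo replicates 1 and 2 correlated with the DMSO libraries at 0.947 to 0.960. The DMSO libraries were not equally close either. DMSO replicate 1 correlated at 0.968 and 0.973 with DMSO replicates 2 and 3, which correlated at 0.985 with each other. In a fit that weighted libraries by their spread, DMSO replicate 1 (0.2449) and Combo replicate 3 (0.2665) had the lowest weights of the 6. Deviations from the group mean were partly shared with the same-numbered Combo libraries of CRT35 (r = 0.218, 0.253 and 0.2075 for replicates 1, 2 and 3). These values run over all genes and were of like size for the 3 numbers. Whether the departure of replicate 3 was shared by CRT35 was not tested. Over the 1549 genes called when replicate 3 was left out, replicate 3 lay at 39.6% of the distance between the DMSO mean and the mean of Combo replicates 1 and 2, and 84.7% of these genes moved in the same direction in it. The place of the other 2 Combo libraries, each measured over genes called without it, was 108% for replicate 1 and 95.9% for replicate 2. List counts and the log2 changes of the leading genes are therefore given with and without Combo replicate 3.

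With all 6 CRT34 libraries, and the spread estimated from all 21 libraries, 983 of 19290 genes were called, 5.1% of those tested. Of these, 547 were higher in Combo (2.84%) and 436 were lower (2.26%), and 485 and 389 of them had no overlap between the 3 Combo and the 3 DMSO libraries. Non-overlapping libraries were found for 21.7% of all genes tested, whether called or not (12.2% with Combo higher and 9.44% with Combo lower), and for 40.1% without Combo replicate 3 (21.9% and 18.3%). Without Combo replicate 3, 1549 genes were called (8.03%), 926 higher (4.8%) and 623 lower (3.23%), including 503 and 399 of those called with it. The median change over all genes was 0.00082 with and 0.017 without that library. In a fit restricted to the 6 CRT34 libraries only 7 genes were called higher and 29 lower, all of which were also called when the other groups helped to estimate the spread. Of the genes named below, this fit called DUSP6, SPRY4, ERRFI1, TFPI2, PLAUR, HMGA1, AREG, IL33, BMP2 and PFKFB3 lower. It called CD36, EPHA3 and TGFB2-OT1 higher. The other genes named below, EGR1, PHLDA1, AJUBA and MITF among them, were not called in it. Each list count below is to be read beside the shares over all genes. These were 2.84% higher and 2.26% lower, and 4.8% and 3.23% without Combo replicate 3.

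ERK feedback inhibitors, which dampen the pathway that induces them, were the first group examined. Of 18 members tested, 4 fell and 0 rose, with a median log2 change of -0.67, and without Combo replicate 3, 4 fell and 1 rose, with a median of -0.48. Over all genes tested, 2.26% and 3.23% fell in these fits. All 4 that fell had lower values in every Combo library than in any DMSO library. DUSP6, the cytoplasmic phosphatase that acts on ERK itself, had 1751, 1931 and 2173 in Combo and 8229.8, 12614 and 13414 in DMSO (log2 change -2.52, SE 0.27, limma adjusted p = 2.67e-05). The 3 Combo libraries lay close together and far below the lowest DMSO library. SPRY4, a Sprouty inhibitor of receptor signaling to RAS, had 955, 1217 and 1089 in Combo and 3103, 5512 and 4185 in DMSO (log2 change -1.94, SE 0.24, limma adjusted p = 0.000138). Its family member SPRY2 had 984, 1275 and 685 in Combo and 2449, 3038 and 2128 in DMSO (log2 change -1.40, SE 0.22, limma adjusted p = 0.000647). ERRFI1, an inhibitor of the EGF receptor family, had 7748, 10042 and 12109 in Combo and 30276, 42722 and 41028 in DMSO (log2 change -1.94, SE 0.18, limma adjusted p = 5.3e-06). In each of these the 3 Combo libraries, replicate 3 included, stayed below the DMSO libraries. DUSP6 (-2.60), SPRY4 (-1.94), SPRY2 (-1.16) and ERRFI1 (-2.09) had these log2 changes without Combo replicate 3, and were called.

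The remaining feedback genes changed less or varied more. SPRED1 and SPRED2, which hold back RAS activation, passed the adjusted p but not the 2-fold limit, with log2 changes of -0.85 and -0.97. The nuclear phosphatase DUSP4 had 1713, 2931 and 1054 in Combo and 2778, 5113 and 4592 in DMSO, where the groups overlapped, and was not called (limma adjusted p = 0.0669). DUSP5, another nuclear ERK phosphatase, was not called either (log2 change -0.66, limma adjusted p = 0.194). Of the 24 core genes of the RAS-RAF-MEK-ERK cascade itself, 0 were called in either direction with or without Combo replicate 3, and BRAF had 2636, 2854 and 3455 in Combo and 2617, 3504 and 2738 in DMSO.

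**Figure D1:**
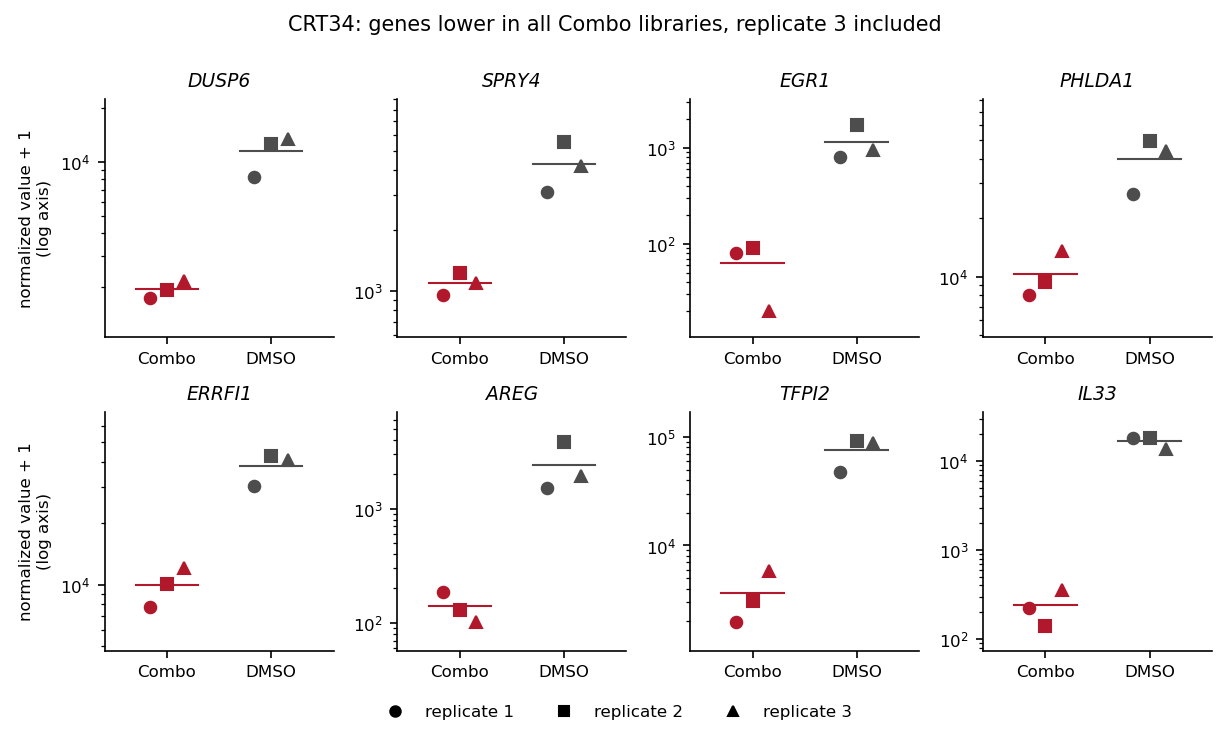
Normalized value + 1 on a log axis for 8 genes that fell with both inhibitors (DUSP6, SPRY4, EGR1, PHLDA1, ERRFI1, AREG, TFPI2 and IL33), 1 point per library with a marker shape for each replicate number and a line at the group mean. For each gene the 3 Combo libraries lie below all 3 DMSO libraries, and Combo replicate 3 lies with the other Combo libraries, as for DUSP6 at 1751, 1931 and 2173.

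Transcription factors that ERK induces fell in part. Of 25 members tested, 8 fell and 0 rose (median -0.74), and without Combo replicate 3, 10 fell and 2 rose (median -0.63), 7 of them called lower in both. EGR1, the zinc finger factor whose promoter is shown above, had 79.5, 89.0 and 19.0 in Combo and 805, 1709 and 957 in DMSO (log2 change -4.39, SE 0.57, limma adjusted p = 0.000187), a mean 20.9-fold lower on the log2(value + 1) scale. Replicate 3 had the lowest value of the 3 Combo libraries, and the groups did not overlap. EGR3, of the same family, had 0.873, 7.20 and 2.53 in Combo and 103, 155 and 89.5 in DMSO (log2 change -4.91, SE 0.66, limma adjusted p = 0.000223). MAFF, a small MAF protein, had 308, 609 and 612 in Combo and 1869.8, 1587 and 1529 in DMSO (log2 change -1.76, SE 0.28, limma adjusted p = 0.000695). IER3, an immediate early gene linked to cell survival, had 1804, 2035 and 3934 in Combo and 7036, 13982 and 14809 in DMSO (log2 change -2.22, SE 0.37, limma adjusted p = 0.00127). For these 3 genes too every Combo library lay below every DMSO library. EGR1 (-3.69), EGR3 (-4.86), MAFF (-1.93) and IER3 (-2.56) had these log2 changes without Combo replicate 3, and were called.

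Members of the AP-1 complex and of the PEA3 group of ETS factors moved unevenly. FOS fell (log2 change -2.04, SE 0.40, limma adjusted p = 0.00361) and JUNB fell (log2 change -1.52, SE 0.36, limma adjusted p = 0.0145), while FOSB fell with all libraries (log2 change -1.31, SE 0.35, limma adjusted p = 0.0259) but was not called without Combo replicate 3 (limma adjusted p = 0.0897). ETV4, a PEA3 factor, had 526, 787 and 1077 in Combo and 1196, 2571 and 2521 in DMSO and fell (log2 change -1.37, SE 0.32, limma adjusted p = 0.0125). Its relative ETV5 had 3060.1, 3675 and 3110.1 in Combo and 2797, 4710.0 and 3701 in DMSO and was not called (limma adjusted p = 0.622). FOSB lost its call without any 1 of Combo replicate 3 and DMSO replicates 2 and 3 (limma adjusted p up to 0.0897). JUNB lost its call without any 1 of Combo replicate 2 and DMSO replicate 3 (limma adjusted p up to 0.0911). ETV4 lost its call without any 1 of Combo replicate 1 and DMSO replicates 2 and 3 (limma adjusted p up to 0.0705).

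The AP-1 member FOSL1, the cyclin CCND1 and MYC, all common readouts of ERK output, were not called. FOSL1 had 3337, 4864 and 2997 in Combo and 7084, 3013 and 3873 in DMSO (limma adjusted p = 0.657). CCND1 had 20826, 36725 and 5753 in Combo and 30521, 14476 and 16481 in DMSO (log2 change -0.24, limma adjusted p = 0.832), and MYC had 635, 621 and 147 in Combo and 816, 339 and 348 in DMSO (log2 change -0.24, limma adjusted p = 0.797). In both, Combo replicates 1 and 2 lay above DMSO replicates 2 and 3 and Combo replicate 3 lay below all DMSO libraries. Without Combo replicate 3 the log2 changes were 0.51 for CCND1 and 0.45 for MYC, of opposite sign and not called.

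Another list held genes known to follow ERK output. Of 21 members tested, 9 fell and 0 rose, and the count was 9 and 0 without Combo replicate 3 as well, with the same 9 genes and medians of -0.53 with and -0.39 without it. TFPI2, an inhibitor of serine proteases in the matrix, had 1954, 3087 and 5828 in Combo and 47529.9, 92236 and 88462 in DMSO (log2 change -4.48, SE 0.50, limma adjusted p = 3.84e-05). PHLDA1, a growth regulator often used as a MEK activity readout, had 8005, 9388 and 13538 in Combo and 26469, 49361 and 43749.5 in DMSO (log2 change -1.94, SE 0.29, limma adjusted p = 0.000465). In both genes Combo replicate 3 was the highest Combo library and still far below DMSO. PLAUR, the receptor of urokinase, had 1466, 2367 and 1953 in Combo and 9164, 5988 and 6828 in DMSO (log2 change -1.93, SE 0.28, limma adjusted p = 0.000348). The adaptor SH2B3 (log2 change -1.67), the cytokine LIF (-1.56), the chromatin proteins HMGA1 (-1.28) and HMGA2 (-1.51), the receptor GPR3 (-1.06) and the prostaglandin synthase PTGS2 (-5.22) also fell. TFPI2 (-4.89), PHLDA1 (-2.15) and PLAUR (-1.95) had these log2 changes without Combo replicate 3, and were called. HMGA2 lost its call without Combo replicate 1 (the change then under 2-fold). GPR3 lost its call without DMSO replicate 1 (the change then under 2-fold). PTGS2 and LIF are also members of the inflammatory list described next, so the lists are not separate evidence.

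NF-kappaB targets and inflammatory genes had a larger median change than the ERK lists, and Combo libraries that differed from each other. Of 31 members tested, 13 fell and 0 rose (median -1.56), and without Combo replicate 3, 24 fell and 0 rose (median -2.84). Leaving out each library in turn gave between 5 and 24 that fell, with 5 without Combo replicate 1, 6 without Combo replicate 2, 9 without DMSO replicate 1 or 2 and 7 without DMSO replicate 3. In Combo replicates 1 and 2 the median member lay 3.05 and 2.63 log2 units below the DMSO mean, whereas in replicate 3 it lay 0.39 above it. Of the 31 members, 19 were above the DMSO mean in Combo replicate 3, against 1 in replicate 1 and 0 in replicate 2.

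CXCL8, the neutrophil chemokine IL-8, had 1203, 3476 and 84574 in Combo and 266134, 142497 and 161205 in DMSO (log2 change -4.69, SE 1.12, limma adjusted p = 0.0144). Combo replicates 1 and 2 were far below every DMSO library and replicate 3 was below them by less. Without replicate 3 the change was larger (log2 change -6.48, SE 0.86, limma adjusted p = 8e-05). CXCL1, another chemokine of neutrophils, had 821, 938 and 27795 in Combo and 23791, 18409 and 27404 in DMSO (log2 change -3.04, SE 0.88, limma adjusted p = 0.0401). Here replicate 3 was above all 3 DMSO libraries, so the groups overlapped, and without it CXCL1 fell further (log2 change -4.70, SE 0.49, limma adjusted p = 9.17e-06). TNFAIP3, the inhibitor A20 that NF-kappaB induces to limit itself, had 504, 929 and 10047 in Combo and 8108, 11454 and 13855 in DMSO (log2 change -2.70, SE 0.66, limma adjusted p = 0.017). PTGS2, which makes prostaglandins, had 171, 528 and 16806 in Combo and 20034, 77631 and 50738 in DMSO (log2 change -5.22, SE 1.06, limma adjusted p = 0.00513). In TNFAIP3 replicate 3 lay within the DMSO range and in PTGS2 it lay just below it. TNFAIP3 (-3.99) and PTGS2 (-7.15) had these log2 changes without Combo replicate 3. CXCL8 lost its call without any 1 of Combo replicates 1 and 2 (limma adjusted p up to 0.084). CXCL1 lost its call without any 1 of Combo replicates 1 and 2 and DMSO replicates 1, 2 and 3 (limma adjusted p up to 0.207). TNFAIP3 lost its call without any 1 of Combo replicates 1 and 2 and DMSO replicate 3 (limma adjusted p up to 0.0961).

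Some cytokines were low in all 3 Combo libraries. IL1B, an inflammatory interleukin, had 164, 172 and 834 in Combo and 10426, 2629 and 7212 in DMSO (log2 change -4.34, SE 0.61, limma adjusted p = 0.000275). IL11, of the IL-6 family, had 62.1, 344 and 1063 in Combo and 8160.5, 23319 and 13504 in DMSO (log2 change -5.59, SE 0.86, limma adjusted p = 0.00058). The granulocyte factor CSF3 had 0, 1.39 and 245 in Combo and 902, 959 and 2300.0 in DMSO (log2 change -7.23, SE 1.35, limma adjusted p = 0.00281). In each of the 3, replicate 3 was the highest Combo library and the groups did not overlap, and each kept its call when any 1 library was left out. None of the 3 was called in the fit restricted to the 6 CRT34 libraries. IL1B (-5.11), IL11 (-6.54) and CSF3 (-9.67) had these log2 changes without Combo replicate 3.

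Other members were called only when Combo replicate 3 was left out. IL6 had 179, 239 and 3714 in Combo and 1878, 855 and 2064 in DMSO, with a limma adjusted p of 0.432 with replicate 3 and 0.0347 without it. BIRC3, the cIAP2 protein that protects cells from death receptor signals, had 608, 871 and 6742 in Combo and 4648, 3107 and 4003 in DMSO, with limma adjusted p values of 0.288 with and 0.00965 without replicate 3. NFKBIA, the inhibitor IkappaB-alpha, had 1974, 1549 and 9113 in Combo and 4815, 6985 and 6596 in DMSO (limma adjusted p = 0.193 and 0.00037). NFKB2, a subunit of the factor itself, had 2146, 2952 and 9483 in Combo and 6172, 7084 and 7546 in DMSO (limma adjusted p = 0.184 and 0.000356). For these 4 genes replicate 3 exceeded all DMSO libraries while replicates 1 and 2 were below all of them.

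**Figure D2:**
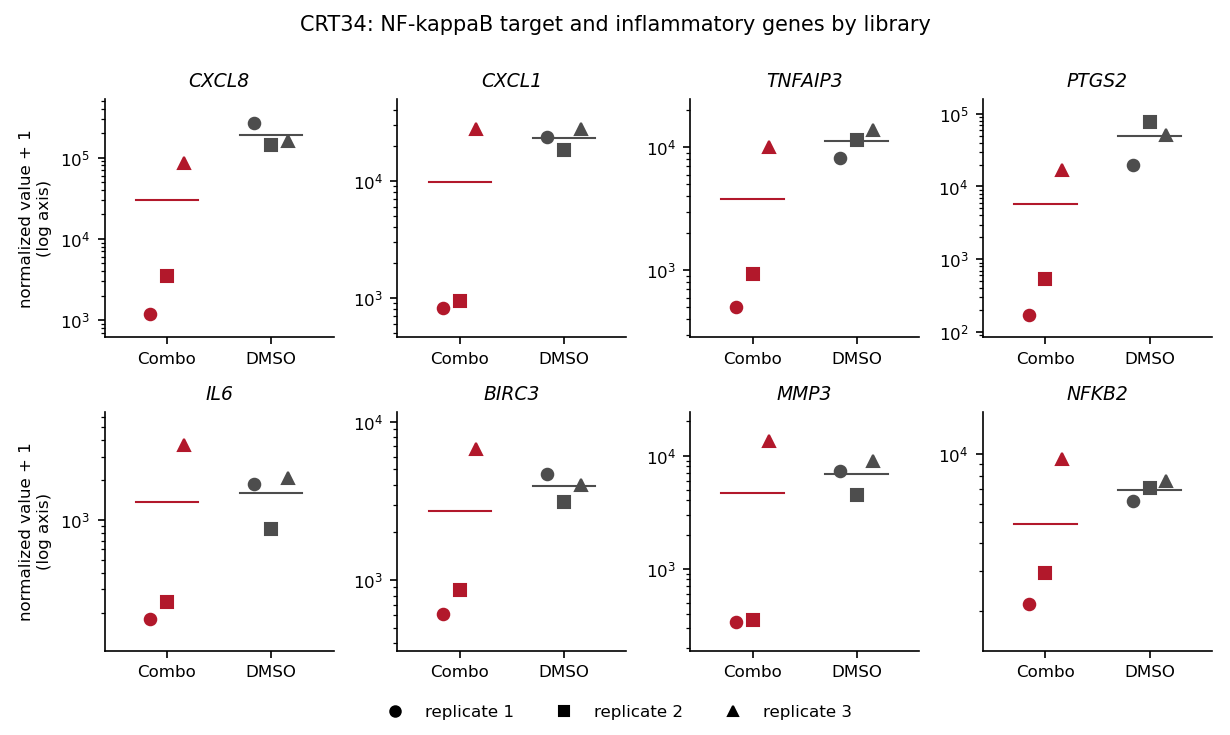
Normalized value + 1 on a log axis for 8 inflammatory genes (CXCL8, CXCL1, TNFAIP3, PTGS2, IL6, BIRC3, MMP3 and NFKB2), 1 point per library with a marker shape for each replicate number and a line at the group mean. Combo replicates 1 and 2 lie below the DMSO libraries in each, and Combo replicate 3 lies near or above them, as for CXCL1 at 821, 938 and 27795 in Combo.

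**Figure D3:**
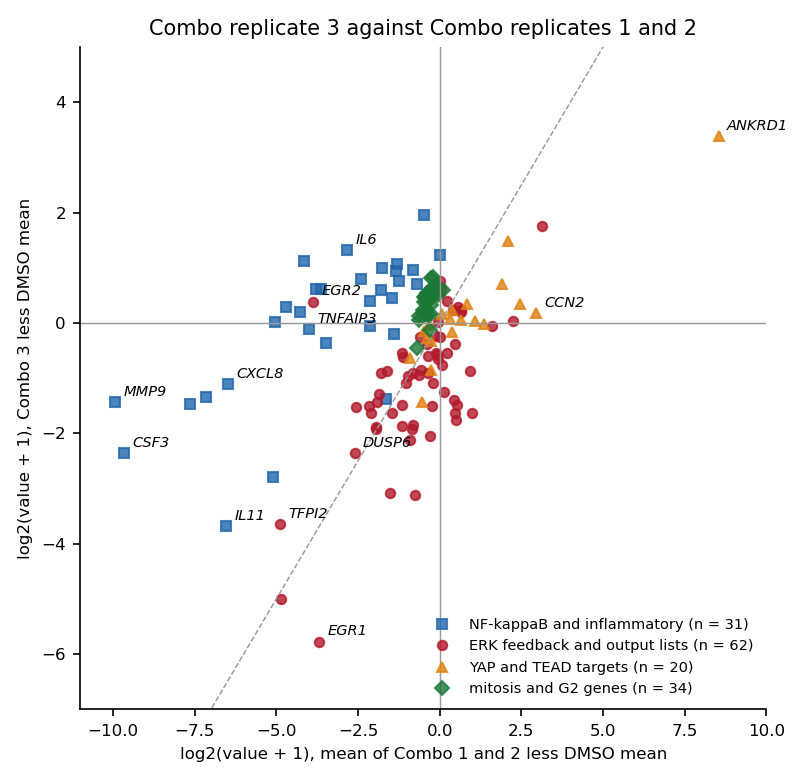
Change of Combo replicate 3 from the DMSO mean (vertical axis, log2 units) against the change of the mean of Combo replicates 1 and 2 (horizontal axis, log2 units) for 31 NF-kappaB and inflammatory genes, 62 genes of the ERK lists, 20 YAP and TEAD targets and 34 mitosis genes, where the dashed line marks equal change. The inflammatory genes lie to the left and well above the line, with medians of -3.05 and -2.63 in replicates 1 and 2 and 0.39 in replicate 3.

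Growth factor ligands and receptors changed gene by gene. Of 31 ligands of receptor tyrosine kinases tested, 2 rose and 3 fell, and of 34 receptors, 2 rose and 2 fell. Without Combo replicate 3, 3 ligands rose and 4 fell, and 3 receptors rose and 4 fell. AREG, the EGF receptor ligand amphiregulin, had 187, 129 and 102 in Combo and 1496, 3847 and 1911 in DMSO (log2 change -4.03, SE 0.40, limma adjusted p = 1.21e-05), and EREG, epiregulin, fell too (log2 change -2.50, SE 0.70, limma adjusted p = 0.0332). IGF2, an insulin-like growth factor, had 8.51, 21.1 and 27.1 in Combo and 91.8, 285 and 147 in DMSO and fell (log2 change -3.12, SE 0.79, limma adjusted p = 0.0199). The ligands that rose were KITLG, stem cell factor, with 4099.6, 8346 and 2031 in Combo and 1710.2, 339 and 595 in DMSO (log2 change 2.55, SE 0.50, limma adjusted p = 0.00372), and EGF, with 2624, 2445 and 1256 in Combo and 1015, 324 and 1077 in DMSO (limma adjusted p = 0.0215). None of these 5 had overlapping groups. AREG (-3.83), EREG (-3.25), IGF2 (-3.44), KITLG (3.06) and EGF (1.84) had these log2 changes without Combo replicate 3, and were called. EREG lost its call without any 1 of Combo replicates 1 and 2 and DMSO replicates 2 and 3 (limma adjusted p up to 0.154). IGF2 lost its call without any 1 of Combo replicates 1 and 2 and DMSO replicates 2 and 3 (limma adjusted p up to 0.0907). EGF lost its call without any 1 of Combo replicates 1 and 2 and DMSO replicate 2 (limma adjusted p up to 0.108).

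Among the receptors, EPHA3, an ephrin receptor, rose (log2 change 1.27, SE 0.29, limma adjusted p = 0.012), as did the neurotrophin receptor NTRK2 (log2 change 1.83, SE 0.51, limma adjusted p = 0.0331) at low levels of 24.1, 18.3 and 13.1 in Combo and 4.97, 5.76 and 2.77 in DMSO. CSF1R, the receptor of a macrophage growth factor, was among those that fell, with 29.0, 65.0 and 263 in Combo and 242, 435 and 475 in DMSO (log2 change -2.20, SE 0.60, limma adjusted p = 0.0287). EGFR had 2364, 3513 and 4953 in Combo and 6530.1, 7288 and 6539.9 in DMSO and was lower by just under 2-fold (log2 change -0.97, SE 0.20, limma adjusted p = 0.00636). It was called without Combo replicate 3 (log2 change -1.23, SE 0.19, limma adjusted p = 0.000266). AXL, a receptor typical of undifferentiated melanoma cells, was not called with all libraries (log2 change 0.73) and was called higher without Combo replicate 3 (1.07) or without DMSO replicate 1 (1.13), and ERBB3 was not called, with 115, 46.4 and 27.9 in Combo and 14.8, 31.4 and 77.0 in DMSO. NTRK2 lost its call without any 1 of Combo replicates 1 and 2 and DMSO replicates 1, 2 and 3 (limma adjusted p up to 0.125). CSF1R lost its call without any 1 of Combo replicates 1 and 2 and DMSO replicates 2 and 3 (limma adjusted p up to 0.149).

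The 10 largest falls among protein-coding genes with complete separation and at least 10 values per M included cytokines and proteases. They were, beside CSF3, IL11, PTGS2 and CXCL8 described above, MMP9, IL33, LRRC38, MMP10, MMP1 and SERPINB2. IL33, an alarmin of the interleukin-1 family, had 224, 141 and 350.4 in Combo and 18329, 18064 and 13557 in DMSO (log2 change -6.20, SE 0.67, limma adjusted p = 2.67e-05), a mean 73.7-fold lower. All 3 Combo libraries were low, replicate 3 included. The collagenase MMP1 had 626, 3079 and 25199 in Combo and 69454, 167921 and 228499 in DMSO (log2 change -5.25, SE 0.96, limma adjusted p = 0.00231), and the stromelysin MMP10 had 6.91, 96.2 and 228 in Combo and 2086, 2234 and 2546 in DMSO (log2 change -5.35, SE 0.91, limma adjusted p = 0.00141). MMP9, a gelatinase, had 0.874, 3.74 and 1085 in Combo and 3729, 1207 and 5583 in DMSO (log2 change -7.11, SE 1.75, limma adjusted p = 0.0172). In MMP1 and MMP9 replicate 3 was the highest Combo library by a wide margin, and in MMP9 it came close to the lowest DMSO library. SERPINB2, an inhibitor of plasminogen activators, had 299, 1153 and 4022 in Combo and 39273, 25216 and 40562 in DMSO (log2 change -4.94, SE 0.93, limma adjusted p = 0.00301), and LRRC38, an auxiliary protein of potassium channels, had 1.75, 34.6 and 1.80 in Combo and 2045, 67.1 and 172 in DMSO (log2 change -5.48, SE 1.01, limma adjusted p = 0.00261). IL33 (-6.53), MMP1 (-6.64), MMP10 (-6.36), MMP9 (-9.94), SERPINB2 (-5.86) and LRRC38 (-4.87) had these log2 changes without Combo replicate 3, and were called. MMP9 lost its call without any 1 of Combo replicates 1 and 2 and DMSO replicate 3 (limma adjusted p up to 0.0956).

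Of 31 genes of the epithelial-mesenchymal transition (EMT) and invasion list, 8 fell and 1 rose (median -0.54), and without Combo replicate 3, 11 fell and 2 rose (median -0.62). MMP14, a protease at the cell membrane, had 4447, 5109 and 8138 in Combo and 16623, 15665 and 21386 in DMSO (log2 change -1.64, SE 0.23, limma adjusted p = 0.000252), and SNAI1, the EMT factor Snail, fell with a narrow spread, 284, 261 and 315 in Combo and 671, 606 and 665 in DMSO (log2 change -1.18, SE 0.18, limma adjusted p = 0.000593). The member that rose was NGFR, a neurotrophin receptor of neural crest cells, at low levels of 28.8, 25.3 and 16.3 in Combo and 13.4, 4.72 and 5.64 in DMSO (log2 change 1.54, SE 0.40, limma adjusted p = 0.0223). MMP14 (-1.89), SNAI1 (-1.25) and NGFR (1.78) had these log2 changes without Combo replicate 3. NGFR lost its call without any 1 of Combo replicates 1 and 2 and DMSO replicates 2 and 3 (limma adjusted p up to 0.0969).

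Of 41 extracellular matrix genes, 10 fell and 2 rose (median -0.34), and without Combo replicate 3, 11 fell and 3 rose. The 3 chains of collagen VI fell together. COL6A1 had 6869, 4937 and 9013 in Combo and 39536, 20217 and 39431 in DMSO (log2 change -2.23, SE 0.32, limma adjusted p = 0.000314), COL6A2 had 4168, 3428 and 7859 in Combo and 44166, 22022 and 40925 in DMSO (log2 change -2.82, SE 0.38, limma adjusted p = 0.00023) and COL6A3 had 47251, 96977 and 113889 in Combo and 326201, 223797 and 232821 in DMSO (log2 change -1.68, SE 0.27, limma adjusted p = 0.000848). All Combo libraries were below all DMSO libraries for each chain. The basement membrane protein NID1 fell by 1.29 on the log2 scale, and COL1A1, a chain of collagen I, fell by 2.14. FN1, which codes for fibronectin, had 144079, 454601 and 256537 in Combo and 549511, 556080.0 and 549027 in DMSO (log2 change -1.11, SE 0.32, limma adjusted p = 0.039). Its Combo values differed more than 3-fold among themselves while its DMSO values were nearly equal, and without Combo replicate 3 it was not called (limma adjusted p = 0.056). COL6A1 (-2.44), COL6A2 (-3.17), COL6A3 (-1.93), NID1 (-1.61) and COL1A1 (-2.83) had these log2 changes without Combo replicate 3, and were called. COL1A1 lost its call without any 1 of Combo replicates 1 and 2 and DMSO replicate 1 (limma adjusted p up to 0.0909). FN1 lost its call without any 1 of Combo replicates 1 and 3 and DMSO replicates 1, 2 and 3 (limma adjusted p up to 0.197).

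In the TGF-beta pathway, 3 of 27 genes fell and 0 rose, and 4 fell and 2 rose without Combo replicate 3. BMP2, a bone morphogenetic protein, had 123, 228 and 196 in Combo and 2762, 2917 and 2238 in DMSO (log2 change -3.88, SE 0.31, limma adjusted p = 1.14e-06), INHBA, the activin A subunit, had 1297, 1735 and 4664 in Combo and 16113, 10667 and 12692 in DMSO (log2 change -2.57, SE 0.48, limma adjusted p = 0.00301), and LTBP2, a matrix protein of the latent TGF-beta binding family, had 679, 1065 and 563 in Combo and 2059.9, 1504 and 2060.3 in DMSO (log2 change -1.32, SE 0.29, limma adjusted p = 0.00899). The groups did not overlap in any of the 3. BMP2 (-3.96), INHBA (-3.11) and LTBP2 (-1.12) had these log2 changes without Combo replicate 3, and were called.

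Genes that rose included targets of YAP and TEAD, the transcription factors of the Hippo pathway. Among protein-coding genes with complete separation and at least 10 values per M, IL18 and CPA4 had the largest rises. IL18, an interleukin-1 family cytokine, had 2292, 1393 and 330.4 in Combo and 17.3, 112 and 95.1 in DMSO (log2 change 4.13, SE 0.64, limma adjusted p = 0.000662), and CPA4, a secreted carboxypeptidase, had 142204, 100805 and 19300.1 in Combo and 6173, 2038 and 4397 in DMSO (log2 change 4.10, SE 0.60, limma adjusted p = 0.000429). In both, replicate 3 was the lowest Combo library but above every DMSO library. SPP1, the matrix protein osteopontin, had 14479, 13996 and 3833 in Combo and 1451, 1543 and 1920.3 in DMSO (log2 change 2.50, SE 0.41, limma adjusted p = 0.00102). The cadherin CDH10 rose (log2 change 3.66), as did NTN4, a netrin (2.76), SEMA3E, a semaphorin (2.63), AP1M2, an epithelial sorting adaptor (2.54), and PKP2, a desmosome protein (2.51). CD36, a fatty acid transporter, had 7162, 9983 and 8239 in Combo and 1126, 2045 and 1359 in DMSO (log2 change 2.52, SE 0.59, limma adjusted p = 0.0129), and here replicate 3 lay between the other Combo libraries. IL18 (4.94), CPA4 (4.97), SPP1 (3.13) and CD36 (2.53) had these log2 changes without Combo replicate 3, and were called. CD36 lost its call without Combo replicate 2 (limma adjusted p up to 0.0582).

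Of 20 YAP and TEAD targets, 5 rose and 0 fell (median 0.28), and 7 rose and 0 fell without Combo replicate 3 (median 0.37). Over all genes tested, 2.84% and 4.8% rose in these fits. Not all members went up. The log2 change was below 0 in 7 of the 20. Libraries did not overlap in 4 members with Combo higher and in 4 with Combo lower, against 12.2% and 9.44% of all genes. The median member lay 0.51, 0.39 and 0.04 log2 units above the DMSO mean in Combo replicates 1, 2 and 3. AJUBA, a LIM protein of cell junctions, had 6051, 6004 and 3947 in Combo and 1761, 1146 and 1412 in DMSO (log2 change 1.88, SE 0.19, limma adjusted p = 1.59e-05). CCN1, a matricellular protein, had 15641, 21764 and 7997 in Combo and 7575, 3779 and 4080.0 in DMSO (log2 change 1.51, SE 0.30, limma adjusted p = 0.00399), and its relative CCN2 had 15056, 24829.9 and 2849.9 in Combo and 3944, 1864 and 2162 in DMSO (log2 change 2.02, SE 0.52, limma adjusted p = 0.021). The CCN1 groups did not overlap, and neither did those of AJUBA, while replicate 3 of CCN2 was within the DMSO range. ANKRD1, a nuclear repeat protein, had 5268, 8819.9 and 191 in Combo and 226, 0 and 26.0 in DMSO (log2 change 6.82, SE 1.37, limma adjusted p = 0.00475), where 2 Combo libraries were far above all DMSO libraries and replicate 3 was inside the DMSO range. AJUBA (2.09), CCN1 (1.92), CCN2 (2.94) and ANKRD1 (8.54) had these log2 changes without Combo replicate 3, and were called. CCN2 lost its call without any 1 of Combo replicates 1 and 2 and DMSO replicates 2 and 3 (limma adjusted p up to 0.134).

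MITF, the master factor of melanocytes, had 8954, 10247 and 3772 in Combo and 2779, 1936 and 1806 in DMSO (log2 change 1.72, SE 0.31, limma adjusted p = 0.0022), and the groups did not overlap. Parental cells had 1502, 1448 and 1390.0. Of 17 melanocyte markers, 11 passed the filter on low values, and of those 2 rose and 1 fell, with the same counts without Combo replicate 3. The other that rose was PMEL, a pigment granule protein, at low levels of 59.6, 39.0 and 51.7 in Combo and 12.0, 13.1 and 35.0 in DMSO (log2 change 1.43, SE 0.38, limma adjusted p = 0.0253), and the one that fell was BCL2A1. MITF (2.17), PMEL (1.39) and BCL2A1 (-4.77) had these log2 changes without Combo replicate 3, and were called. PMEL lost its call without any 1 of Combo replicate 1 and DMSO replicates 1 and 2 (limma adjusted p up to 0.103). The list as a whole did not rise. The log2 change was below 0 in 8 of the 11 markers tested (median -0.17), and in 7 without Combo replicate 3 (median -0.11). Libraries did not overlap in 2 of them with Combo higher and in 3 with Combo lower, against 12.2% and 9.44% of all genes. The defining pigment genes TYR and MLANA were listed at 0 in all libraries of both groups and of the parental line.

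Other lists had few called members, beside 2.84% higher and 2.26% lower over all genes tested (4.8% and 3.23% without Combo replicate 3). Of 40 interferon-stimulated genes, 3 rose and 1 fell with Combo replicate 3 (median 0.37) and without it (median 0.33). IFIT1, an antiviral protein that binds RNA, had 3661, 1931 and 1456 in Combo and 303, 715 and 646 in DMSO (log2 change 2.07, SE 0.33, limma adjusted p = 0.000756), its relative IFIT2 rose (log2 change 1.97, SE 0.35, limma adjusted p = 0.00198), and so did OAS1, a sensor of double-stranded RNA (log2 change 1.25, SE 0.32, limma adjusted p = 0.0223), while the exonuclease ISG20 fell (log2 change -1.45, SE 0.32, limma adjusted p = 0.0084). Of 25 antigen presentation genes, 3 rose and 1 fell, and 3 rose and 2 fell without Combo replicate 3. Those called with all libraries belong to the class II pathway: HLA-DMA rose (log2 change 1.13), HLA-DRB1 and the class II activator CIITA rose at low levels, with CIITA not called without Combo replicate 3 (limma adjusted p = 0.125), and CD74, the invariant chain, fell, with 1312, 801 and 1790.1 in Combo and 4052, 2534 and 2355 in DMSO (log2 change -1.23, SE 0.27, limma adjusted p = 0.00958). HLA genes are similar in sequence and reads can be split between them. OAS1 lost its call without any 1 of Combo replicates 1 and 2 and DMSO replicates 1 and 3 (limma adjusted p up to 0.101). HLA-DMA lost its call without any 1 of Combo replicates 1 and 2 and DMSO replicate 1 (limma adjusted p up to 0.0584). HLA-DRB1 lost its call without any 1 of Combo replicate 2 and DMSO replicate 2 (limma adjusted p up to 0.0746). CIITA lost its call without any 1 of Combo replicates 2 and 3 and DMSO replicates 2 and 3 (limma adjusted p up to 0.158). CD74 lost its call without any 1 of Combo replicate 2 and DMSO replicate 1 (limma adjusted p up to 0.0672).

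In metabolism, 3 of 25 glycolysis genes fell and 0 rose, and 3 fell and 1 rose without Combo replicate 3. SLC16A3, the lactate exporter MCT4, had 1641, 1716 and 1515 in Combo and 2952, 4571 and 4743 in DMSO (log2 change -1.30, SE 0.18, limma adjusted p = 0.000263). PFKFB3 and PFKFB4, which make the activator of phosphofructokinase, fell as well (log2 change -1.07, SE 0.16, limma adjusted p = 0.000465 for PFKFB3, and log2 change -1.57 for PFKFB4). PFKFB3 was nearly the same in the 3 Combo libraries, 2497, 2422 and 2493, against 4897, 5218 and 5425 in DMSO. In the hypoxia list of 20, 2 rose and 0 fell (3 and 0 without Combo replicate 3), the 2 being ADM, the vasodilator adrenomedullin (log2 change 1.35, SE 0.22, limma adjusted p = 0.00102), and EGLN3, an oxygen sensor (log2 change 1.46, SE 0.39, limma adjusted p = 0.0261). In the list of 18 FOXO and PI3K feedback genes, 3 rose and 0 fell, against 4 and 1 without Combo replicate 3. The 3 were PIK3IP1, a PI3K inhibitor (2.07), SESN3, a sestrin (1.02), and the co-regulator CITED2 (1.37), with all values as log2 changes. Of 23 p53 targets, PLK2, a polo-like kinase, was the 1 called, and it rose (log2 change 1.86, SE 0.29, limma adjusted p = 0.000598), for a list median of 0.38. Without Combo replicate 3, 4 p53 targets rose and 0 fell, with a median of 0.66. Of 32 lysosome and autophagy genes, MITF rose and ULK1, the kinase that starts autophagy, fell (log2 change -1.32, SE 0.27, limma adjusted p = 0.00471), and without Combo replicate 3, 3 rose and 1 fell. SLC16A3 (-1.25), PFKFB3 (-1.07), PFKFB4 (-2.09), ADM (1.26), PLK2 (2.22) and ULK1 (-1.06) had these log2 changes without Combo replicate 3, and were called. EGLN3 lost its call without any 1 of Combo replicates 1 and 2 and DMSO replicates 1 and 3 (limma adjusted p up to 0.111). PIK3IP1 lost its call without any 1 of Combo replicates 1 and 2 and DMSO replicate 1 (limma adjusted p up to 0.132). SESN3 lost its call without any 1 of Combo replicates 1 and 2 and DMSO replicates 1 and 3 (limma adjusted p up to 0.163). CITED2 lost its call without any 1 of Combo replicates 1 and 2 and DMSO replicates 1 and 3 (limma adjusted p up to 0.182).

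Genes of proliferation were called gene by gene, and the lists were not tested as groups. Of 34 mitosis and G2 genes, 41 DNA replication and E2F targets, 21 genes of G1 control and 39 MYC targets and ribosome biogenesis genes, 0 were called in either direction with all libraries, and without Combo replicate 3 the 1 called was a G1 control gene that rose. MKI67, the proliferation antigen, had 12001, 16362 and 24510.1 in Combo and 19043, 15037 and 12415 in DMSO (limma adjusted p = 0.888), and the cell cycle inhibitor CDKN1B had 2429.5, 1705 and 2912 in Combo and 1963, 3042 and 2614 in DMSO (limma adjusted p = 0.793). Small changes below 0 were common all the same. With all libraries the log2 change was below 0 in 22 of 34 mitosis genes, 31 of 41 replication and E2F targets, 15 of 21 G1 genes and 31 of 39 MYC targets. Without Combo replicate 3 these numbers were 33, 38, 14 and 28. The Combo libraries differed from each other in these lists. The median mitosis gene lay 0.33 and 0.31 log2 units below the DMSO mean in Combo replicates 1 and 2 and 0.47 above it in replicate 3, in which 32 of 34 members were above that mean, against 1 and 2 members in replicates 1 and 2. For DNA replication and E2F targets the numbers above the DMSO mean were 4, 9 and 22 of 41. Of the housekeeping list of 14, the 29 respiratory chain genes and the 30 genes of cholesterol and fatty acid synthesis, 0 were called with all libraries, and 1 of the cholesterol and fatty acid list rose without Combo replicate 3.

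**Figure D4:**
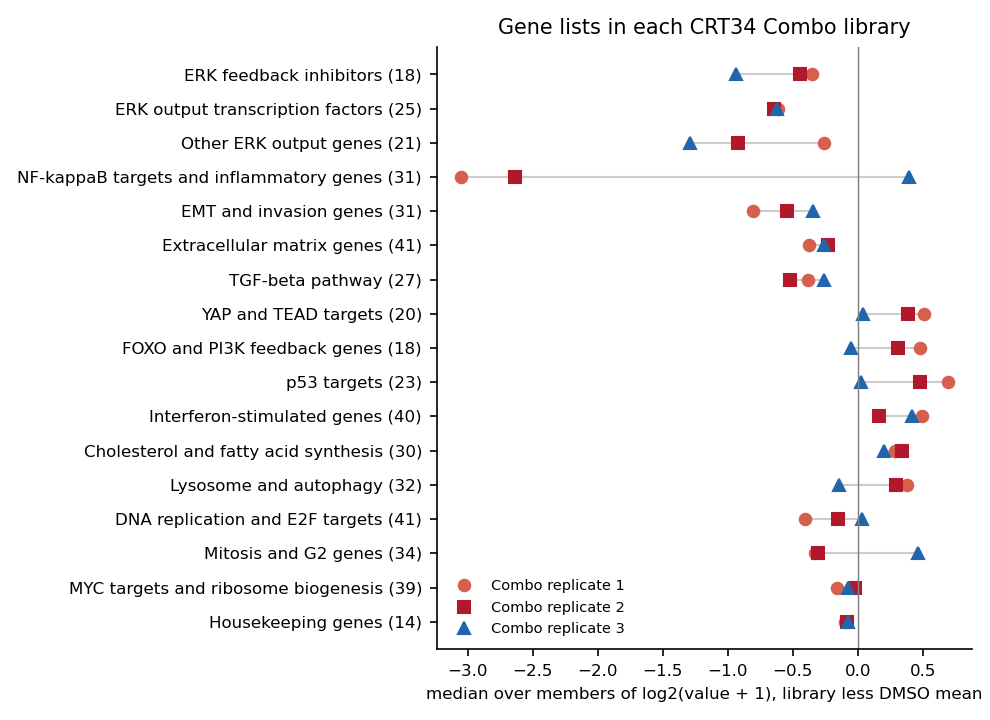
Median log2 difference from the DMSO mean over the tested members of 17 gene lists, 1 point per Combo library (horizontal axis, log2 units). The lists of ERK output lie below 0 in all 3 libraries, with medians of -0.61, -0.65 and -0.62 for the transcription factors, while the NF-kappaB list (-3.05, -2.63 and 0.39) and the mitosis list (-0.33, -0.31 and 0.47) change sign in Combo replicate 3.

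Among regulators of cell death, of 16 tested BCL2 family genes, 1 fell and 0 rose with all libraries, and 1 fell and 2 rose without Combo replicate 3. Of 24 genes of the IAP and death receptor list, 0 were called with all libraries and 2 fell without Combo replicate 3. The one that fell in the BCL2 list was BCL2A1, a survival protein that NF-kappaB induces, with 19.2, 27.4 and 190.1 in Combo and 1030.1, 451 and 591 in DMSO (log2 change -3.77, SE 0.62, limma adjusted p = 0.00102). BCL2L11, the death activator BIM, had 380.5, 469.7 and 968 in Combo and 560.4, 998 and 711 in DMSO and was not called (limma adjusted p = 0.624).

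Genes called without Combo replicate 3 and not with it numbered 423 higher and 224 lower, and 44 and 37 were called with it and not without it. The largest of these without it, with both remaining Combo libraries beyond every DMSO library, were AOX1, LRRC7, CAVIN2, VSIR and RCAN2 among those higher and MMP13, TRPA1, C15orf48, MMP3 and CXCL2 among those lower. AOX1, an aldehyde oxidase, had 4732, 3722 and 403 in Combo and 926, 277 and 474 in DMSO, and MMP13, a collagenase, had 12.4, 23.1 and 3107 in Combo and 369, 2007 and 3895 in DMSO. MMP3, a stromelysin, had 337, 349 and 13334 in Combo and 7304, 4435 and 9005 in DMSO. In AOX1 replicate 3 was within the DMSO range, as in MMP13, and in MMP3 it was above that range.

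Markers of other cell types were examined because the line had passed through mice and because several genes above are also expressed in stroma and leukocytes. In bulk RNA, fewer cells of a type and less RNA per cell cannot be told apart. Fibroblast markers summed to 2449 to 2967 values per M (1 M of a library's summed values) in Combo and 2986 to 3798 in DMSO, against 15.9 to 19.7 in parental cells, and of 9 members tested 2 fell (3 without Combo replicate 3), COL1A1 and DCN (log2 change -1.81, SE 0.52, limma adjusted p = 0.0385 for DCN, a matrix proteoglycan). Leukocyte markers summed to 120 to 138 per M in Combo and 52.8 to 105 in DMSO. In the values as listed CD68, a lysosomal protein, made up most of that sum, a share that a factor for each gene would change. The defining markers CD3E and TYROBP were listed at 0 in all libraries of both groups. Of 8 leukocyte markers tested 2 rose, ITGAM and PTPRC, and 2 fell, CSF1R and FCER1G, and ITGAM, PTPRC and FCER1G were under 50 in every library of both groups. Of 9 endothelial markers 1 rose, VWF at 10.2, 10.2 and 61.6 in Combo and 2.04, 2.36 and 1.13 in DMSO, and 2 fell, PECAM1 and ROBO4, with CLDN5 at 0 in both groups. The counts of called leukocyte and endothelial markers were the same without Combo replicate 3. Endothelial markers summed to 52.6 to 98.7 per M in Combo and 40.9 to 54.5 in DMSO, keratinocyte markers to 130 to 229 in Combo and 119 to 240 in DMSO with KRT14 at 0 in both groups, and of 19 neural crest and glial markers 3 rose and 1 fell (4 and 1 without Combo replicate 3). DCN lost its call without any 1 of Combo replicates 1 and 2 and DMSO replicates 1, 2 and 3 (limma adjusted p up to 0.207). FCER1G lost its call without any 1 of Combo replicates 1 and 2 and DMSO replicates 2 and 3 (limma adjusted p up to 0.2). PECAM1 lost its call without any 1 of Combo replicates 1 and 2 and DMSO replicates 2 and 3 (limma adjusted p up to 0.132). ROBO4 lost its call without any 1 of Combo replicates 1 and 2 and DMSO replicates 1 and 3 (limma adjusted p up to 0.0794). The part of other cell types in the results was not tested.

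CRT35, the companion line, was given the same inhibitors, and its Combo and DMSO libraries were compared in the same fit. In CRT35, 219 genes were called (1.14%), 94 higher (0.487%) and 125 lower (0.648%). DUSP6 had 4491, 3246 and 1562 in CRT35 Combo and 17058, 14058 and 13478 in CRT35 DMSO, a log2 change of -2.38 next to -2.52 in CRT34. Of the ERK lists, 7 of 18 feedback inhibitors, 3 of 25 transcription factors and 7 of 21 other output genes fell in CRT35 and 0 rose. Of 31 NF-kappaB and inflammatory genes 1 fell in CRT35 (median 0.15), and CXCL1 had 56392, 30345 and 23329.5 in CRT35 Combo and 34066, 12423 and 12942 in CRT35 DMSO (log2 change 0.96, SE 0.88, limma adjusted p = 0.64).

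The difference of the 2 drug effects was tested directly, as the CRT34 effect less the CRT35 effect. With all libraries 2 genes differed (0.0104% of those tested), both higher in CRT34, and 0 were lower, with 1343 genes at an unadjusted limma p under 0.05. Without CRT34 Combo replicate 3, 223 genes differed (1.16%), 89 higher (0.461%) and 134 lower (0.695%), so that the count changed with this library. That fit kept CRT35 Combo replicate 3. Over all genes, same-numbered Combo libraries of the 2 lines deviated together in part (r = 0.218, 0.253 and 0.2075). This did not hold for each gene, as for CXCL1 replicate 3 was the highest Combo library in CRT34 and the lowest in CRT35. Any deviation shared by the 2 replicate 3 libraries stayed in CRT35 only, and its part in these counts was not tested. Of the NF-kappaB and inflammatory genes 16 of 31 differed in that fit, all with the lower effect in CRT34, among them CXCL1 (difference -5.66, SE 0.66, limma adjusted p = 0.000496) and TNFAIP3 (difference -3.90, SE 0.44, limma adjusted p = 0.000428). With all libraries their adjusted p values were 0.426 and 0.528. For DUSP6 the difference was -0.14 (SE 0.39, limma adjusted p = 0.988), which does not show that the effects were equal.

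The 2 genes that differed with all libraries were OR51B5 and TGFB2-OT1, the second named after its values were seen. TGFB2-OT1, a long noncoding RNA at chromosome 1, 218442626 to 218443996 on the plus strand of GRCh38, had 294, 182 and 97.3 in CRT34 Combo and was listed at 0 in all CRT34 DMSO and all 6 CRT35 libraries, and parental cells had 6.38, 9.36 and 12.8. It overlaps the TGFB2 gene, so the assignment of reads is uncertain, and its fitted difference depends on the pseudocount. OR51B5, an olfactory receptor gene that overlaps the globin region, had 1411, 1481 and 811 in CRT34 Combo and 251, 426 and 438 in CRT34 DMSO, and 206, 198 and 188 in CRT35 Combo and 276, 341 and 327 in CRT35 DMSO (difference 2.39, SE 0.32, limma adjusted p = 0.00523). Its assignment is uncertain for the same reason.

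**Figure D5:**
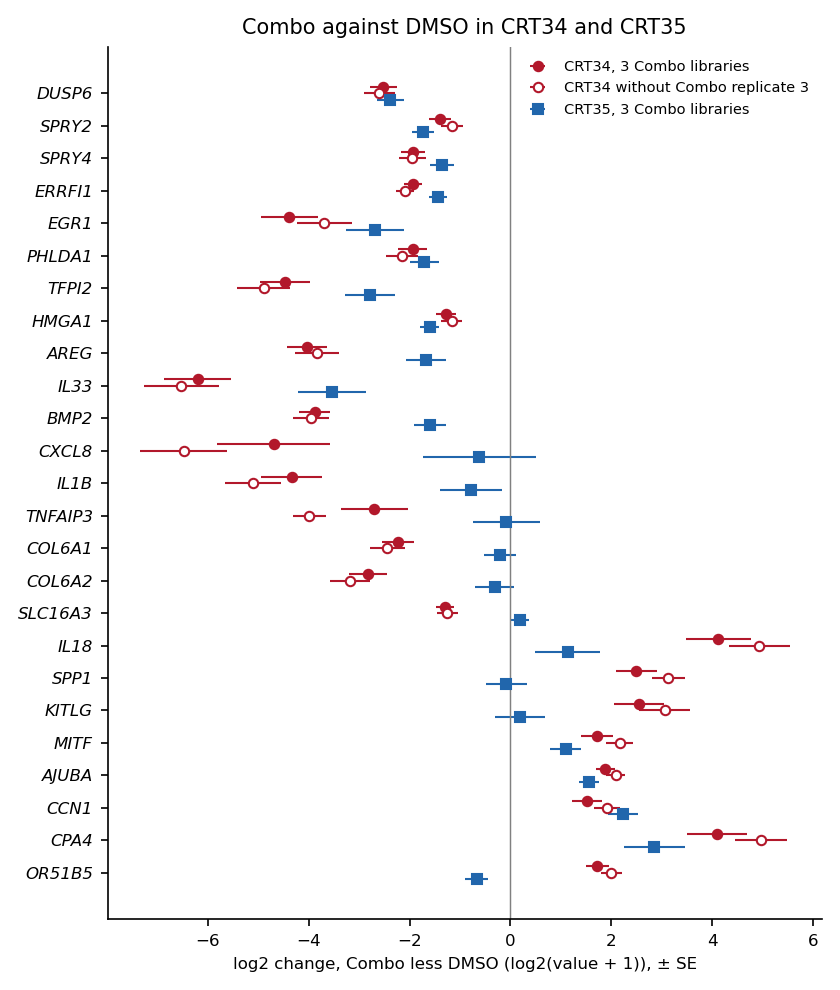
Log2 change of Combo less DMSO with limma's SE as bars for 25 genes, in CRT34 with all libraries, in CRT34 without Combo replicate 3 and in CRT35 (horizontal axis, log2 units). DUSP6 lies at -2.52 in CRT34 and -2.38 in CRT35, and CXCL8 at -4.69 in CRT34, -6.48 without replicate 3 and -0.61 in CRT35.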

How the data were processed

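RNA of CRT34 and of the other A375-derived groups had been sequenced by the authors as paired-end reads. The authors used STAR 2.6.1a, Picard, RSEM and DESeq2 per the labels, on the genome GRCh38, and the library kits named in the labels and in the study's methods differ. The deposited signal values are read here as gene counts that the authors had divided by size factors, because the median ratio to the geometric mean of each gene was equal in all libraries. That ratio cannot show whether a factor for each gene was divided out as well, since such a factor cancels in it. Whole reads could not be recovered from the deposited values, so no count model was used, and depth was estimated from the smallest steps between values. Of 58870 genes, 58472 identifiers matched GENCODE 44.

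Genes with a value of 10 or more in at least 3 libraries were kept, 19290 of 32889 above 0. One limma-trend model (limma 3.58.1 in R 4.3.3) with a mean for each of 7 groups was fitted to log2(value + 1) of all 21 libraries (14 residual and 4.70 prior degrees of freedom), and p-values were adjusted by Benjamini-Hochberg over all genes kept. Tables were made with Python 3.11.15 and pandas 2.3.3. Calls needed an adjusted p of at most 0.05 and a fold of 2. The model was tested on simulated data with the same spread in all groups and no outlying library. That setting differs from these data, in which Combo replicate 3 stood apart and CRT34 DMSO replicate 1 had a low library weight. The test therefore does not cover them. Same-numbered libraries of CRT34 Combo and CRT35 Combo deviated together (r = 0.218, 0.253 and 0.207), and a replicate block left the 2 and 0 calls of the difference as they were.

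Members and lists were chosen with earlier results of these data known. SOD2 of the inflammatory list had no symbol match. Genes named were a panel that opens with SOX10, up to 4 called members per list and direction with the lowest p, the 10 largest rises and 10 largest falls with complete separation and at least 10 values per M, the 5 largest per direction for the difference and for genes called without Combo replicate 3 and not with it, and members singled out in the text. Alternatives were another pseudocount, no filter, only the compared groups, a replicate block, rescaling to equal totals, quantile normalization, library weights, no trend and leaving out each library. For the fits without Combo replicate 3, the rescaled, quantile-normalized and 5-library versions were added after the data were seen. Values of some list members are not reported here.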

Additional observations from a re-analysis of the deposited data

Results flagged for a closer look

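Effects of both inhibitors that differed between CRT34 and CRT35 by a direct test are given here, as the CRT34 effect less the CRT35 effect in log2 units. With all libraries the difference was 2.39 for OR51B5 and a fitted 7.45 for TGFB2-OT1, whose size is no estimate of a fold, since it is set against groups listed at 0 and depends on the pseudocount (4.21 with a pseudocount of 10). Without CRT34 Combo replicate 3, the effect was higher in CRT34 for LINC01133, a long noncoding RNA (4.27), IL18 (3.80), SPP1 (3.21), GCNT3, an enzyme of mucin glycans (2.89), and SH3GL2, an endophilin of membrane traffic (2.88).

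In the same fit the effect was lower in CRT34 for CSF3 (-8.24), MMP9 (-7.69), the cytokine CSF2 (-7.14), TNFSF14, a ligand of the TNF family (-6.16), and MMP13 (-6.05). For SPP1 the values were 14479, 13996 and 3833 in CRT34 Combo and 1451, 1543 and 1920.3 in CRT34 DMSO, and 19189.6, 19247 and 10937 in CRT35 Combo and 16464, 17009.9 and 17079 in CRT35 DMSO, so that CRT34 Combo replicates 1 and 2 lay within the range of the CRT35 libraries and CRT34 Combo replicate 3 and CRT34 DMSO below it. For TNFSF14 they were 49.5, 19.4 and 921 in CRT34 Combo and 174, 595 and 688 in CRT34 DMSO, and 3150.0, 671 and 437 in CRT35 Combo and 369, 136 and 109 in CRT35 DMSO. With all libraries the 10 genes of the fit without Combo replicate 3 did not pass, and the adjusted limma p was 0.14 for SPP1, 0.0796 for GCNT3 and 0.414 for IL18. That library moves with this result, and its part was not tested further. The fit without it kept CRT35 Combo replicate 3, which over all genes deviated in part in the same way (r = 0.2075). Single genes differed in this. Replicate 3 was the lowest Combo library of both lines for SPP1, but for TNFSF14 it was the highest in CRT34 and the lowest in CRT35.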

How the results depend on the processing

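The counts of called genes rest on how the spread between libraries was estimated. With only the 6 compared libraries 7 genes were higher and 29 lower, and with library weights 1498 and 1065. Among the named genes, 94 lost their call with only the 6 compared libraries, and for 47 the outcome stayed the same, called or not. Other settings gave counts of 565 and 461 with a pseudocount of 10, 611 and 425 with no filter, 647 and 382 with equal totals (which moved the median of all genes to 0.084), 469 and 527 with quantile normalization and 519 and 407 with no trend. Leaving out each library in turn gave 229 to 926 higher and 307 to 623 lower. The lowest numbers came without Combo replicate 1 (229 and 364) and Combo replicate 2 (234 and 307). Higher genes were 55.6% of the calls and 59.8% without Combo replicate 3, where quantile normalization gave 49.3%. Without Combo replicate 3 and with only the 5 remaining libraries, 354 were higher and 318 lower. For the lists, only the compared groups gave 0 ERK output transcription factors, 3 other ERK output genes and 0 NF-kappaB genes that fell, and library weights gave 23 NF-kappaB genes. Leaving out each library gave 6 to 10, 8 to 9 and 5 to 24 in these lists and 4 to 6 ERK feedback inhibitors.

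For the difference of the drug effects, more genes were higher with a pseudocount of 10 (7), quantile normalization (4), no trend (6) and library weights (492), and fewer with only the compared groups (1). Genes lower numbered 5 with a pseudocount of 10, 1 with no filter, equal totals or no trend and 750 with library weights. Leaving out each library gave 2 to 89 higher and 0 to 134 lower.

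Same-numbered CRT34 Combo and CRT34 DMSO libraries did not deviate together (r = -0.059, -0.171 and 0.014), so the numbers did not pair them, and a replicate block gave 589 higher and 469 lower.

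Directions turned for genes that were not called. With library weights log2 changes were 0.059 for DUSP5, 0.23 for FOSL1, 0.83 for CCND1, 0.62 for MYC, -0.011 for BRAF and -0.19 for ERBB3. Without Combo replicate 3 they were 0.51 for CCND1, 0.45 for MYC, -0.094 for BRAF and -0.12 for MKI67, and without Combo replicate 2, 0.090 for CDKN1B. Without DMSO replicate 1 they were 0.096 for FOSL1, 0.085 for CCND1, 0.17 for MYC and -0.064 for BRAF. Without DMSO replicate 2 they were 0.023 for ETV5 and 0.018 for CDKN1B, and without DMSO replicate 3, -0.032 for BRAF and -0.003 for MKI67. Over all 6 libraries left out in turn, the log2 change ran between -0.35 and 0.023 for ETV5, -0.52 and 0.096 for FOSL1, -0.82 and 0.51 for CCND1, -0.60 and 0.45 for MYC, -0.094 and 0.15 for BRAF, -0.30 and 0.090 for CDKN1B and -0.12 and 0.39 for MKI67. The causes were not tested. Groups of 3 libraries and an unknown number of cultures limit the precision, and the spread among Combo libraries limits the smaller changes.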

Other observations

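Some called genes fit no comparison above. The muscle LIM protein FHL1, of the contractile list, had 55137, 43941 and 8792 in Combo and 7491, 8492 and 9135 in DMSO (log2 change 1.73, SE 0.42, limma adjusted p = 0.015), with replicate 3 inside the DMSO range, and CEBPB, a transcription factor of the stress response list, had 546, 523 and 1213 in Combo and 1070.4, 2123 and 1806 in DMSO (log2 change -1.19, SE 0.29, limma adjusted p = 0.0165). Among neural crest and glial markers, GFRA1, a receptor of glial growth factors, rose (log2 change 2.03, SE 0.57, limma adjusted p = 0.0341), as did the water channel AQP1 (log2 change 1.22, SE 0.36, limma adjusted p = 0.0431), and NES, the intermediate filament nestin, fell (log2 change -1.54, SE 0.43, limma adjusted p = 0.0317). The epithelial protein SFN rose at low levels, with 49.8, 26.9 and 29.1 in Combo and 7.33, 9.45 and 11.3 in DMSO (log2 change 1.77, SE 0.38, limma adjusted p = 0.00732). FHL1 lost its call without any 1 of Combo replicates 1 and 2 (limma adjusted p up to 0.0937). CEBPB lost its call without any 1 of Combo replicates 1 and 2 and DMSO replicates 2 and 3 (limma adjusted p up to 0.0974). GFRA1 lost its call without any 1 of Combo replicates 1 and 2 and DMSO replicates 2 and 3 (limma adjusted p up to 0.148). AQP1 lost its call without any 1 of Combo replicates 1 and 2 and DMSO replicates 1 and 2 (limma adjusted p up to 0.244). NES lost its call without any 1 of Combo replicates 1 and 2 and DMSO replicate 1 (limma adjusted p up to 0.152).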
